A study of Mus musculus with 11 samples.

Results

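The BCL-2 family decides whether the outer membrane of the mitochondrion stays closed or is opened to release cytochrome c and start the caspases. The survival proteins hold the membrane closed, the effectors Bax and Bak1 open it, and BH3-only proteins carry a death signal by binding the survival proteins or the effectors. Adult heart muscle cells are known to depend on Mcl1 in particular, and senescent cells are known to lean on survival proteins of this family, which some senolytic drugs inhibit directly. A total of 10 family genes were taken by their GENCODE GRCm38 symbols from the 55487 identifiers of the count table. They were the survival genes Bcl2, Bcl2l1 (encoding BCL-XL), Bcl2l2 (BCL-W) and Mcl1, the effectors Bax, Bak1 and Bok, and the BH3-only genes Bbc3 (PUMA), Bcl2l11 (BIM) and Bid. Each symbol had 1 identifier, and all 10 genes were among the 23779 tested after a filter on low counts.

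RNA was sequenced from hearts of female C57BL/6NTac mice, an inbred strain, which were 8 weeks of age at the start and were then fed for 24 weeks. The obese cocktail-treated group (ObeSeno, 3 libraries) ate an obesogenic diet, a chow with 60.3% of its energy from fat given together with sweetened condensed milk. From week 16 it also received the kinase inhibitor dasatinib (5 mg/kg) with the flavonoid quercetin (50 mg/kg) by gavage in 10% PEG400, on 3 days in a row each week. The obese group (Obese, 4 libraries) ate the same diet and received the PEG400 vehicle by gavage. The control-diet group (Cntl, 4 libraries) ate a diet with 10.4% of its energy from fat, and no source used here says if it was gavaged, so that diet and gavage cannot be told apart. Nothing in the labels ties a library to its own animal. The p-values therefore reflect only library-to-library spread, of which some may be technical. In bulk tissue, fewer cells of a type and less RNA per cell cannot be told apart.

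Library totals were 64.2 to 72.3 M counts in cocktail-treated, 52.7 to 67.2 M in obese and 73.1 to 103.3 M in control-diet libraries. Genes of the mitochondrial chromosome took 17.8 to 22.4%, 21.4 to 24.5% and 28.2 to 32.3% of counts in the same 3 groups. Cardiomyocyte markers (Myh6, Tnnt2, Actc1, Tnni3 and Myl2) were above 0 in every library, with summed levels of 23771.9 to 27677.5, 18144.6 to 27143.6 and 22446.5 to 31792.2 CPM. These sums overlapped and were mostly Myh6, but Tnnt2 (log2 fold change -0.41) and Myl2 (-0.84) were called lower in obese than in control-diet hearts (edgeR adjusted p = 0.0442 and 0.024), and their part in the falls described below was not tested. Summed atrial markers ran from 43.4 to 5388.1 CPM in cocktail-treated, from 15.5 to 1979.4 CPM in obese and from 30.7 to 94 CPM in control-diet libraries. Obese replicate 3 and cocktail-treated replicates 2 and 3 held the highest atrial levels, and results were also computed without them. All levels below are CPM, the counts scaled to a common library size after TMM correction, and all tests are edgeR quasi-likelihood tests with Benjamini-Hochberg adjustment over the 23779 genes, called at an adjusted p under 0.05.

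Of the 10 genes, Bcl2l11 was the 1 gene called in any comparison. It was lower in obese than in control-diet hearts and lower in cocktail-treated than in control-diet hearts. No family gene was called between cocktail-treated and obese hearts, where none of the 23779 genes was called either (0%). The survival genes held most of the family's transcript level in all 3 groups. Bcl2l11 encodes BIM, a BH3-only protein that binds every survival protein of the family and is known as a transcriptional target of FOXO factors.

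Bcl2l11 (ENSMUSG00000027381) lies on the plus strand at chr2:128126038-128162547 in GRCm38. RefSeq gave it 2 promoter windows, each 250 bases before to 50 bases after an annotated start. The first is shown because Bcl2l11 carries the called difference and this window holds the FOXO motif GTAAACA, which the other does not. The family's other window with that motif is 1 of 3 windows of Bbc3, the gene of PUMA, another BH3-only protein known as a target of p53 and FOXO3. Both windows are written 5′ to 3′ on the plus strand in GRCm38.p6, from RefSeq, with the motif in capitals.
Bcl2l11, chr2:128125788-128126087: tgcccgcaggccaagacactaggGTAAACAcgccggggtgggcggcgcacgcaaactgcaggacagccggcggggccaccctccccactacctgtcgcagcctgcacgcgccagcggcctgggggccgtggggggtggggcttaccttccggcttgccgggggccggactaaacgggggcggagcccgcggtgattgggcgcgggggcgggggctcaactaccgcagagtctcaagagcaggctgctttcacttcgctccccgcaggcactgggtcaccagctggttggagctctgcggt
Bbc3, chr7:16310011-16310310: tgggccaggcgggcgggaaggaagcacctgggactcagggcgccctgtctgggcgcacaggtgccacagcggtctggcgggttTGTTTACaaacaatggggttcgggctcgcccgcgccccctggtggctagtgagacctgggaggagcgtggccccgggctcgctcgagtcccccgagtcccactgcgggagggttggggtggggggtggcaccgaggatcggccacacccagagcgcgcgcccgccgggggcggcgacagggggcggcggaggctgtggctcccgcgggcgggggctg
In Bcl2l11 the motif stood on the plus strand, its first base 227 bases before the start, and in Bbc3 it stood on the minus strand, 167 bases before the start. The 10 genes had 15 RefSeq windows in all, and the other windows held no GTAAACA on either strand. Of all 32851 windows of the same length, 3.6% held it on either strand. The windows were rich in G and C, with 71.0% in the Bcl2l11 window and 74.7% in the Bbc3 window, against a median of 52.7% over all windows. The GC box GGGCGG, searched in the same way and not overlapping GTAAACA, occurred 3 times in the Bcl2l11 window and 4 times in the Bbc3 window, and was present in 35.7% of all windows. The E-box CACGTG and the AP-1 site TGANTCA (N for any base) were also searched. Neither occurred in the 2 windows shown, and they were present in 7.2% and 7.8% of all windows. An E-box occurred in the Bax window and in another Bbc3 window, and no family window held an AP-1 site. A match describes these letters and not a bound site.

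Per kb of annotated exon, which allows levels of different genes to be compared, Mcl1 was the highest family gene, at a mean of 22.9 ± 2.49 CPM per kb (SD, n = 11 libraries). Bcl2l1 followed at 15.3 ± 3.83, and although the ranges of the 2 genes met, Mcl1 lay above Bcl2l1 in 11 of 11 libraries. Bcl2l2 came next at 7.14 ± 0.872 CPM per kb. Bax (3.96 ± 0.465 CPM per kb) and Bak1 (3.77 ± 0.585 CPM per kb), the pore-forming effectors, did not differ beyond their spread, with Bax the higher in 6 of 11 libraries. Bcl2l11 stood at 2.86 ± 0.705 CPM per kb and was the highest BH3-only gene. Bcl2, the founding member of the family, stood below it at 1.96 ± 0.327 CPM per kb, the lowest of the survival genes, and was exceeded by Bcl2l11 in 10 of 11 libraries. Bok (1.15 ± 0.318 CPM per kb) and Bbc3 (0.898 ± 0.158 CPM per kb) overlapped, with Bok above in 7 of 11 libraries. Bid was lowest at 0.31 ± 0.0627 CPM per kb, below Bbc3 in 11 of 11 libraries. An exon length that joins all annotated transcripts makes genes with long or rarely used exons appear lower, and Bcl2 has 9157 such bases against 3418 in Mcl1.

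**Figure D1:**
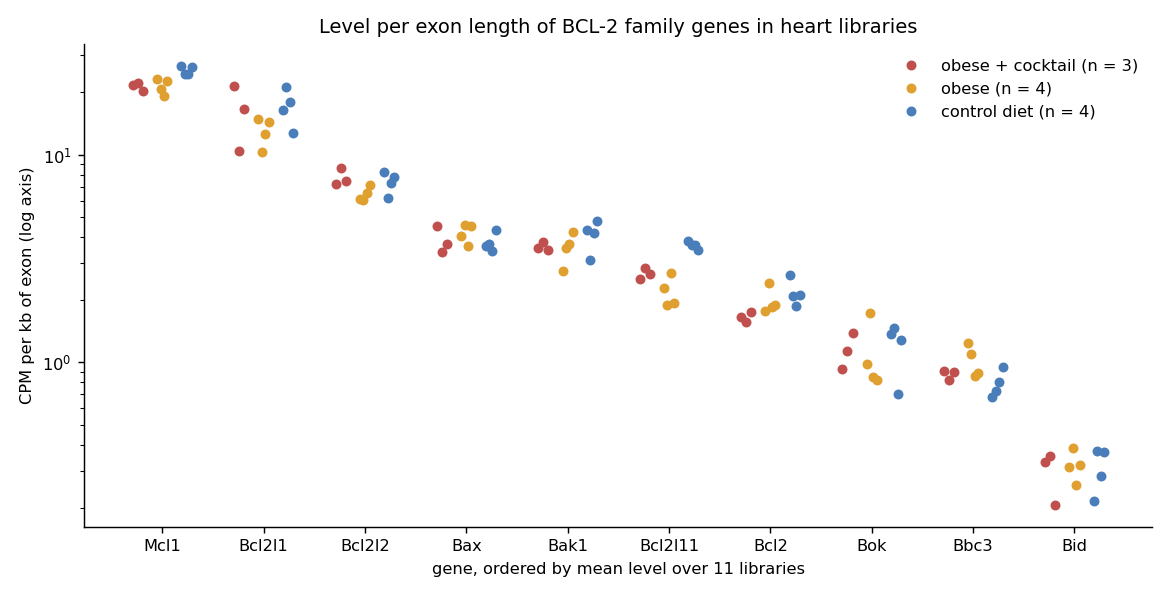
Level of each BCL-2 family gene in CPM per kb of exon on a log axis, 1 point per library, with genes ordered by their mean over 11 libraries. Mcl1 and Bcl2l1 stand highest, and Bid lowest with values between 0.206 and 0.385.

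The 4 survival genes together took 78.9% ± 1.36 of the family's summed level per kb in cocktail-treated hearts (SD, n = 3), 77.5% ± 2.12 in obese hearts (SD, n = 4) and 79% ± 1.81 in control-diet hearts (SD, n = 4). The effectors took 14.6% ± 0.623, 16.1% ± 2.14 and 13.8% ± 1.69 in the same groups. The BH3-only genes took 6.55% ± 0.753, 6.42% ± 0.835 and 7.22% ± 0.238. These shares overlapped between groups for all 3 roles. As a sum, the BH3-only genes stood at 3.86 ± 0.145 CPM per kb in cocktail-treated, 3.53 ± 0.345 in obese and 4.76 ± 0.0274 in control-diet hearts, and every control-diet library (4.72 to 4.78) lay above every other library. Bcl2l11 supplied most of that sum.

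**Figure D2:**
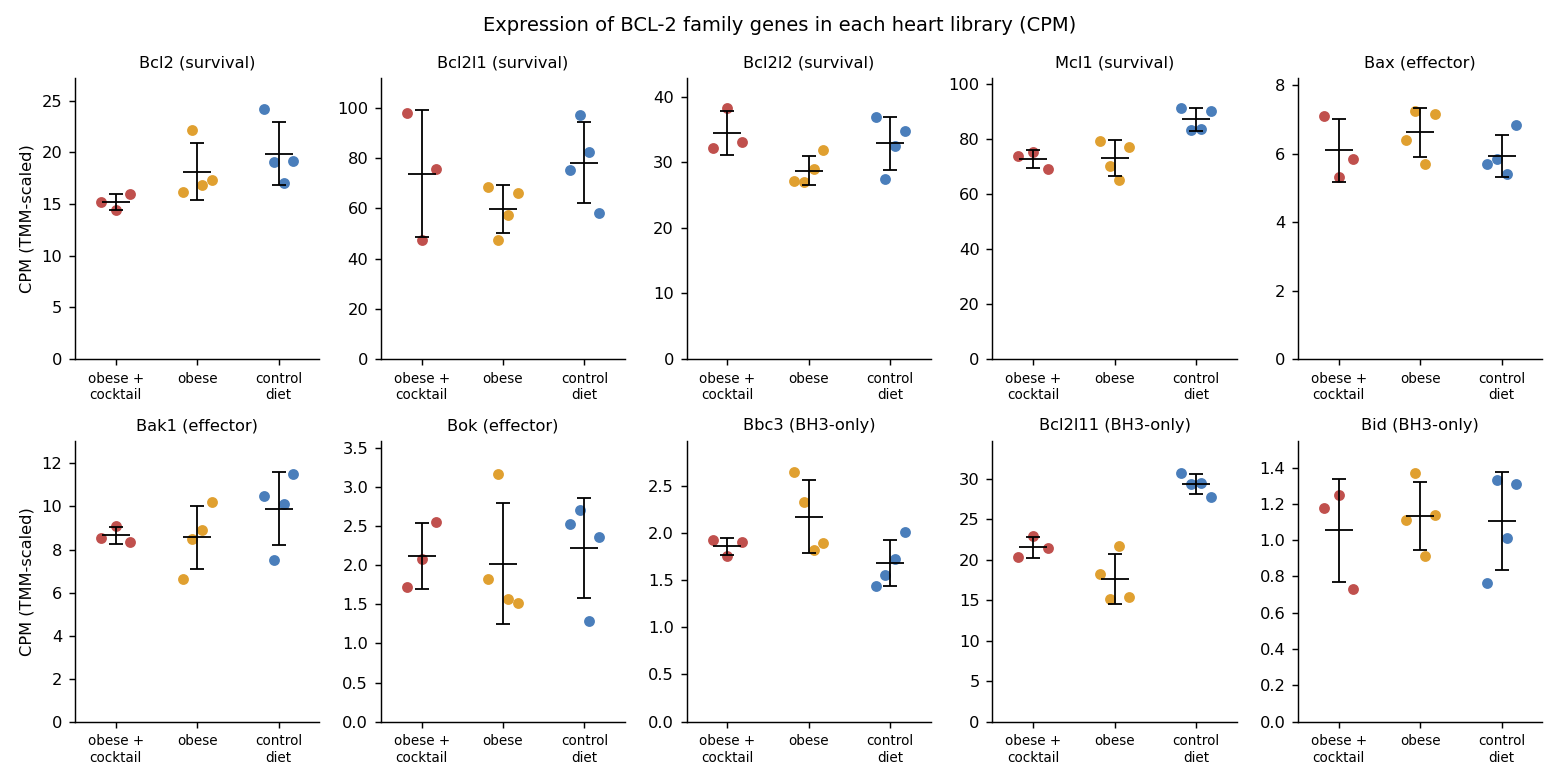
CPM of each BCL-2 family gene, 1 point per library, with the mean and SD of each group as bars. For Bcl2l11 the control-diet libraries (27.8 to 30.7) stand above all cocktail-treated (20.3 to 22.9) and obese (15.1 to 21.7) libraries.

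Among the survival genes, Mcl1 encodes a short-lived protein that is replaced continuously and guards Bak1. Mcl1 (ENSMUSG00000038612, chr3:95658788-95663176, plus strand) had 74, 75.2 and 69 CPM in cocktail-treated libraries, 79.4, 70.3, 65.2 and 77.3 CPM in obese libraries, and 91.4, 83.3, 83.7 and 90.4 CPM in control-diet libraries. All control-diet libraries were higher than all libraries of both other groups, whereas the cocktail-treated and obese libraries overlapped. Against the control diet, the log2 fold change was -0.26 (SE 0.09) in obese hearts, with an edgeR adjusted p of 0.0535, and -0.26 (SE 0.10) in cocktail-treated hearts, with an adjusted p of 0.0941. Neither passed the threshold. The obese value was on the called side with DESeq2 (adjusted p = 0.0132), RLE size factors (0.0384), limma voom (0.047), the replicate block (0.0462), without Cntl replicate 2 (0.0294) and without Obese replicate 4 (0.0457). No other alternative called it, with adjusted p up to 0.989 in other settings and up to 0.13 with 1 library left out. Without a scaling factor its log2 fold change was 0.16. DESeq2 also called the cocktail-treated value (adjusted p = 0.0387). Between cocktail-treated and obese hearts it was -0.01 (SE 0.10, adjusted p = 0.987).

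Bcl2 (ENSMUSG00000057329, chr1:106538178-106714274, minus strand) had 15.2, 14.4 and 16 CPM in cocktail-treated libraries, 16.2, 22.2, 16.8 and 17.3 CPM in obese libraries, and 24.2, 19.1, 17 and 19.2 CPM in control-diet libraries. The cocktail-treated libraries were the 3 lowest of the 11 and overlapped neither other group, whereas obese and control-diet libraries overlapped. No comparison passed: the log2 fold change was -0.25 (SE 0.14, edgeR adjusted p = 0.551) for cocktail-treated over obese, -0.13 (SE 0.13, 0.462) for obese over control diet, and -0.39 (SE 0.14, 0.0794) for cocktail-treated over control diet. DESeq2 called the last of these (adjusted p = 0.0444).

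Bcl2l1, whose main product BCL-XL is a direct target of some senolytic drugs other than the cocktail used here, was the most variable survival gene. It had 98, 47.5 and 75.8 CPM in cocktail-treated libraries, 68.5, 47.3, 57.5 and 66.2 CPM in obese libraries, and 75.3, 97.2, 82.5 and 58.1 CPM in control-diet libraries. All 3 groups overlapped, and the cocktail-treated group spanned nearly the whole range of the 11 libraries. The log2 fold changes were 0.30 (SE 0.23, edgeR adjusted p = 0.653) for cocktail-treated over obese, -0.39 (SE 0.21, 0.178) for obese over control diet and -0.09 (SE 0.23, 0.826) for cocktail-treated over control diet.

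Bcl2l2 encodes BCL-W, a close relative of BCL-XL. It had 32.1, 38.3 and 33.1 CPM in cocktail-treated libraries, 27.1, 27, 29 and 31.8 CPM in obese libraries, and 36.9, 27.5, 32.5 and 34.8 CPM in control-diet libraries. Every cocktail-treated library stood above every obese library, and the control-diet libraries overlapped both. The log2 fold change of cocktail-treated over obese was 0.26 (SE 0.12), with an unadjusted p of 0.0417 and an edgeR adjusted p of 0.48, so it was not called. For obese over control diet it was -0.20 (SE 0.11, adjusted p = 0.187; 0.0396 without Cntl replicate 2), and for cocktail-treated over control diet 0.07 (SE 0.12, adjusted p = 0.724). A readthrough gene on the same strand, Gm20521, shares 594 exon bases with Bcl2l2 and was listed with 203 counts over all libraries, against 24871 for Bcl2l2.

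The effectors Bax, Bak1 and Bok gave no call in any comparison, and none separated 2 groups. Bax had 7.11, 5.33 and 5.85 CPM in cocktail-treated libraries, 6.39, 7.25, 5.7 and 7.15 CPM in obese libraries, and 5.69, 5.85, 5.42 and 6.83 CPM in control-diet libraries. Its log2 fold change was 0.16 (SE 0.14, edgeR adjusted p = 0.417) for obese over control diet, 0.04 for cocktail-treated over control diet and -0.12 for cocktail-treated over obese. Bak1 ranged from 8.36 to 9.11 CPM in cocktail-treated, from 6.63 to 10.2 CPM in obese and from 7.51 to 11.5 CPM in control-diet libraries. The span of Bak1 lies within Ggnbp1, a gene on the opposite strand with 2 identifiers. Exons of these identifiers cover 437 bases (18.2%) and 177 bases (7.35%) of the Bak1 exons, and reads on those bases cannot be told apart where the use of strand is not given. Bok, a less studied effector that does not need Bax or Bak1, ranged from 1.72 to 2.55, from 1.52 to 3.16 and from 1.29 to 2.7 CPM in the same 3 groups. Absolute log2 fold changes of Bak1 and Bok were at most 0.21 in the 3 comparisons.

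Among the BH3-only genes, Bcl2l11 had 20.3, 22.9 and 21.5 CPM in cocktail-treated libraries, 18.2, 15.1, 21.7 and 15.4 CPM in obese libraries, and 30.7, 29.4, 29.5 and 27.8 CPM in control-diet libraries. The control-diet libraries were the 4 highest of the 11, and the cocktail-treated and obese libraries overlapped through Obese replicate 3. Counts behind these values were 959 to 2634 per library. In obese hearts Bcl2l11 fell 1.67-fold relative to control-diet hearts (log2 fold change -0.74, SE 0.12, edgeR adjusted p = 0.000859). In cocktail-treated hearts it fell 1.36-fold relative to control-diet hearts (log2 fold change -0.45, SE 0.13, adjusted p = 0.0326). Between cocktail-treated and obese hearts the log2 fold change was 0.29 (SE 0.13, unadjusted p = 0.0352, adjusted p = 0.464), which did not pass.

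The 3 comparisons share groups, so they are not independent of each other. In cocktail-treated against obese hearts, groups that did not overlap were found for 2 of the 10 family genes, Bcl2l2 higher and Bcl2 lower, against 10.1% of all genes (4.68% higher and 5.45% lower). In obese against control-diet hearts, 1 of the 10 genes was called, as lower, against 30.1% of all 23779 genes (14.4% higher and 15.7% lower). Groups that did not overlap were found there for Mcl1 and Bcl2l11, both lower, which is 2 of the 10 genes, against 28.5% of all genes (13.8% higher and 14.7% lower). In cocktail-treated against control-diet hearts, 1 of the 10 genes was called, as lower, against 15.8% of all genes (7.43% higher and 8.39% lower). Groups that did not overlap were found there for Bcl2, Mcl1 and Bcl2l11, all lower, which is 3 of the 10 genes, against 27.9% of all genes (13.7% higher and 14.1% lower). The family's counts of calls were thus below or near the background in both comparisons with the control diet. By p-value, Bcl2l11 stood at place 650 of 23779 in obese against control-diet hearts, and 26.2% of all genes had a larger absolute log2 fold change.

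The fall of Bcl2l11 in obese hearts kept its call without any 1 of the 11 libraries, with log2 fold changes of -0.85 to -0.67. It lost the call without a scaling factor for library composition (log2 fold change -0.31, edgeR adjusted p = 0.106, where the median of all genes was 0.527), and with the intronic share, the mitochondrial share or the endothelial marker level as a covariate (adjusted p = 0.0996, 0.152 and 0.0856). With these covariates the log2 fold change itself was larger in size. It was -0.89 with the intronic share, -1.03 with the mitochondrial share and between these with the endothelial level. The intronic share was the share of counts in genes that GENCODE types as sense_intronic or TEC, not of reads in introns. The endothelial level in the fit was the mean log2 CPM of the 5 markers, not their sum. Both shares, and the endothelial markers as a sum, separated the obese from the control-diet libraries. These fits can therefore hardly tell such measures from the group difference. Calls over all genes in this comparison fell from 3429 higher and 3737 lower to 35 and 86, 1 and 5, and 138 and 198, in that order. The call of Bcl2l11 in cocktail-treated hearts was lost without any 1 cocktail-treated library (adjusted p = 0.095, 0.0531 and 0.114 without replicates 1, 2 and 3) and without Cntl replicates 1, 3 or 4 (0.0788, 0.0634 and 0.057). It was also lost without the 3 libraries of highest atrial marker level (log2 fold change -0.52, adjusted p = 0.12), with upper-quartile scaling (-0.39, 0.0534) and with the intronic, mitochondrial or endothelial covariate (-0.53, -0.84 and -0.71; 0.115, 0.619 and 0.297). Without a scaling factor the difference itself was near 0 (-0.03, 0.911). Endothelial markers stood higher as a sum in every control-diet library than in all others. Their mean sum was 561.8 CPM in cocktail-treated and 576.0 CPM in obese hearts. The 5 genes, all above 0 in every library, summed to 548.8 to 587.5 CPM in cocktail-treated, 547.0 to 652.9 CPM in obese and 735.9 to 865.7 CPM in control-diet libraries. Of these 5, Cdh5 and Kdr were called lower in both comparisons with the control diet, Pecam1, Tie1 and Emcn in neither, and Pecam1 averaged 192.8 CPM in cocktail-treated as in control-diet hearts. Smooth muscle and pericyte markers summed to 515.5 to 752.6, 636.7 to 725.8 and 920.8 to 1113.8 CPM, mostly from Rgs5, which was called lower in both comparisons (log2 fold change -0.77 in obese and -0.91 in cocktail-treated hearts). Pdgfrb was called lower in cocktail-treated hearts (-0.43), whereas Acta2, Myh11 and Tagln had positive values that did not pass. The share of the mitochondrial chromosome, given above, and the intronic share (0.509 to 0.671%, 0.663 to 0.811% and 0.286 to 0.59% of counts) also separated control-diet from obese libraries. The part of these cell markers and library measures in the fall of Bcl2l11 was not tested beyond these fits.

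**Figure D3:**
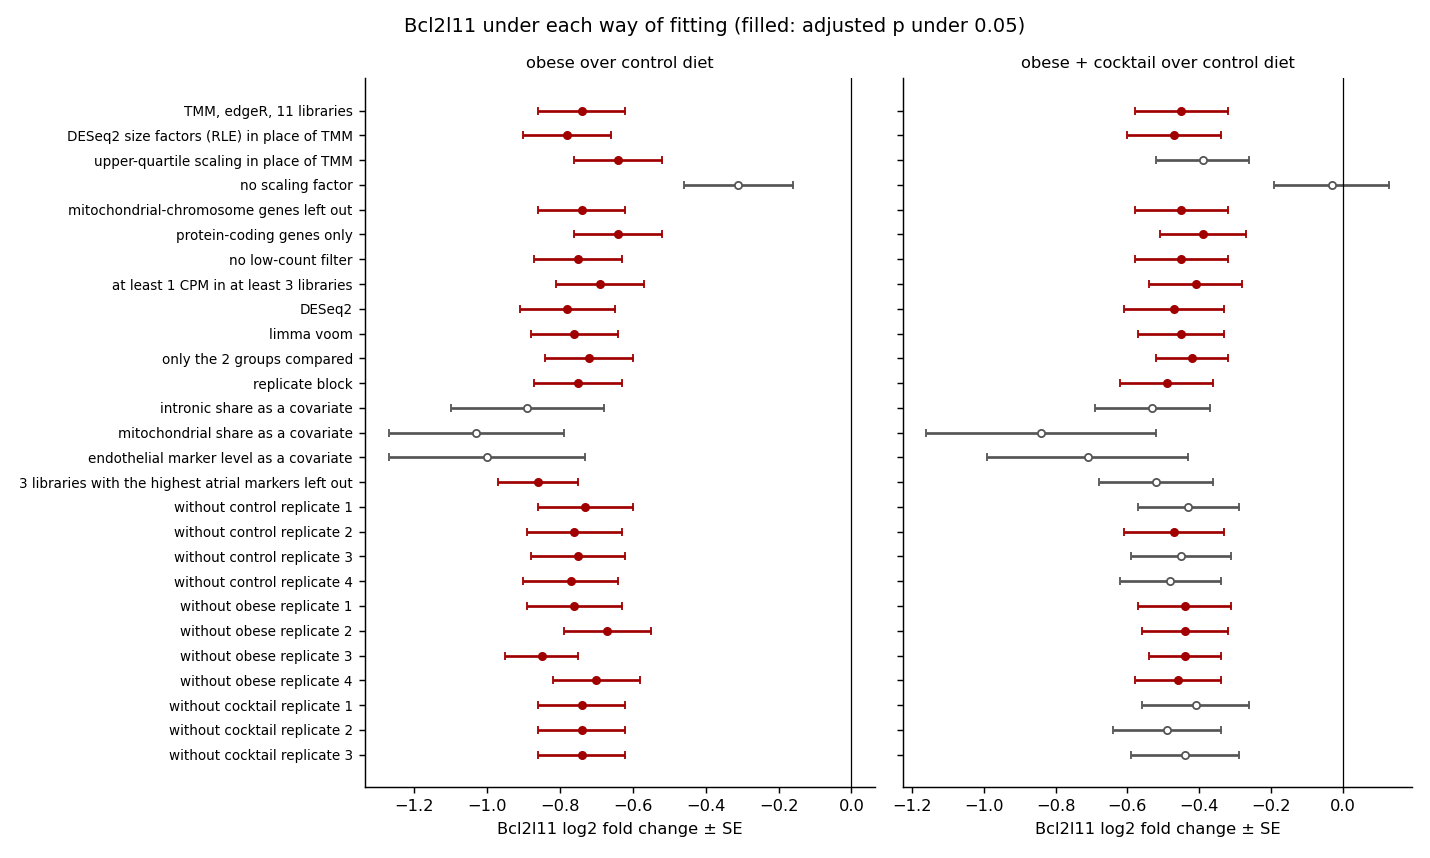
Log2 fold change of Bcl2l11 with its SE in each fit, for obese over control diet (left) and obese plus cocktail over control diet (right), with filled points where the adjusted p was under 0.05. All points lie below 0; the left panel ranges from -1.03 to -0.31 and the right panel from -0.84 to -0.03.

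The genes most like Bcl2l11 across the 11 libraries, by the root mean square difference of centred log2 CPM, were Trnt1 (0.09), which adds the CCA end to transfer RNAs, Zfp110 (0.09), a zinc finger gene, and Mxi1 (0.10), a MAX partner that opposes MYC. The root mean square of Bcl2l11 about its own mean was 0.35. Mxi1 had 32.2, 35.2 and 35.4 CPM in cocktail-treated libraries, 25.3, 20.7, 32.7 and 26.3 CPM in obese libraries, and 48.6, 44.6, 47.6 and 47.4 CPM in control-diet libraries, with Obese replicate 3 the highest of its group, as in Bcl2l11. Since these genes were picked for their likeness, their own differences are a description.

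Bbc3 had 1.92, 1.75 and 1.9 CPM in cocktail-treated libraries, 2.64, 2.33, 1.82 and 1.89 CPM in obese libraries, and 1.44, 1.55, 1.72 and 2.01 CPM in control-diet libraries. Obese and control-diet libraries overlapped through Cntl replicate 4, and the log2 fold change of 0.37 (SE 0.19) did not pass (edgeR adjusted p = 0.152). Cocktail-treated hearts gave -0.22 (SE 0.20, adjusted p = 0.717) over obese hearts and 0.14 (SE 0.20, adjusted p = 0.656) over control-diet hearts. Without a scaling factor, Bbc3 and Bax were on the called side as higher in obese than in control-diet hearts (log2 fold changes 0.80 and 0.58, adjusted p = 0.00974 and 0.00825), where the median of all genes had shifted by 0.420.

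Bid, which caspase-8 cleaves to pass a death-receptor signal to mitochondria, was the lowest of the 10 genes, with 54 to 99 counts in each library. It had 1.18, 1.25 and 0.731 CPM in cocktail-treated libraries, 1.11, 1.37, 0.911 and 1.14 CPM in obese libraries, and 0.764, 1.33, 1.01 and 1.31 CPM in control-diet libraries. The groups overlapped in all comparisons, with adjusted p from 0.895 to 0.927 in edgeR. Of its exon bases, 628 overlap Bcl2l13, a relative of the family on the opposite strand with 44706 counts over all libraries against 847 for Bid. How many of the reads listed for Bid belong to Bcl2l13 cannot be told without the use of strand.

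**Figure D4:**
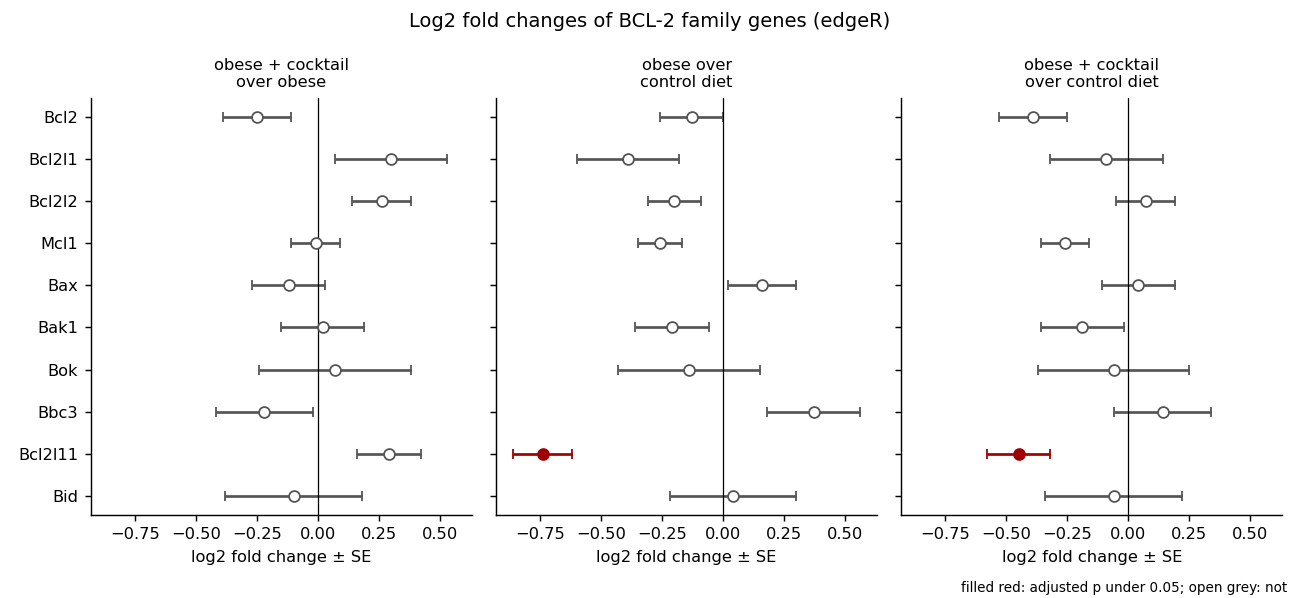
Log2 fold change of each BCL-2 family gene with its SE (edgeR), for obese plus cocktail over obese, obese over control diet, and obese plus cocktail over control diet. Filled points mark an adjusted p under 0.05, which Bcl2l11 alone reached, at -0.74 and -0.45 in the 2 comparisons with the control diet.

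Over the family as a whole, the median log2 fold change of the 10 genes was 0.01 for cocktail-treated over obese hearts, -0.17 for obese over control-diet hearts and -0.07 for cocktail-treated over control-diet hearts, against medians of -0.01, 0.11 and 0.05 over all genes tested. For obese over control diet, all 4 survival genes had negative values (median -0.23) and 0 of them was called by edgeR. Mcl1 alone of the 4 had an unadjusted edgeR p under 0.05, against 42.7% of all genes. It alone of them was called by DESeq2 and limma voom. Without a scaling factor, Bcl2, Bcl2l2 and Mcl1 had positive values (0.30, 0.24 and 0.16), none of them called. Between cocktail-treated and obese hearts, 0 of the 10 genes was called by edgeR, DESeq2 or limma voom. Bcl2l11 and Bcl2l2, 2 of the 10, had an unadjusted p under 0.05 there, against 10.2% of all genes.

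The balance of an effector to a survival gene is often read from Bax over Bcl2, and a ratio within a library does not depend on library scaling. The log2 ratio of Bax to Bcl2 counts, with no correction for length, was -1.09, -1.43 and -1.45 in cocktail-treated libraries, -1.34, -1.61, -1.56 and -1.27 in obese libraries, and -2.09, -1.70, -1.65 and -1.49 in control-diet libraries. All cocktail-treated libraries lay above all control-diet libraries by a narrow gap (-1.45 against -1.49), and the obese libraries overlapped both. The group means were -1.33 ± 0.20, -1.45 ± 0.16 and -1.73 ± 0.25 (SD, n = 3, 4 and 4), so that cocktail-treated exceeded control-diet hearts by 0.41 (0.29 to 0.49 on leaving out any 1 library). In that comparison the log2 fold change was -0.39 for Bcl2 and 0.04 for Bax, neither called by edgeR. For Bak1 to Mcl1, another effector and survival gene, the means were -3.07 ± 0.04, -3.10 ± 0.33 and -3.15 ± 0.22, and the groups overlapped. No test was run on the ratios. For the log2 ratio of Bcl2l11 to Bcl2, the means were 0.50 ± 0.14, -0.05 ± 0.40 and 0.57 ± 0.19, and the obese libraries, at 0.17, -0.56, 0.36 and -0.17, overlapped the control-diet group through replicate 3 alone.

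Genes that act with the family were counted from a list of 60, of which 57 were tested. In obese against control-diet hearts, 4 rose, 18 fell and 35 did not pass, with a median log2 fold change of -0.14 against 0.11 over all genes, of which 14.4% were called higher and 15.7% lower. In cocktail-treated against control-diet hearts, 1 rose, 13 fell and 43 did not pass, with a median of -0.18 against 0.05 over all genes, of which 7.43% were called higher and 8.39% lower. The direction of these counts turned without a scaling factor, to 22 higher and 3 lower in obese and 19 higher and 3 lower in cocktail-treated hearts. In cocktail-treated against obese hearts, 0 of the 57 were called, and the median was 0.03. Of the 57, 3 had an unadjusted edgeR p under 0.05, among them Tnfrsf10b and Foxo3, against 10.2% of all genes. Of the 22 genes called in obese against control-diet hearts, 14 kept the call without any 1 library. Without a scaling factor 15 lost it, and 21 lost it with each of the 3 covariates. Calls over all genes there, 3429 higher and 3737 lower, fell to 35 and 86 with the intronic share. They fell to 1 and 5 with the mitochondrial share, and to 138 and 198 with the endothelial level. Of the 14 genes called in cocktail-treated against control-diet hearts, Bnip3 and Hrk kept the call without any 1 library. The count of 13 falls there was 3, 6 and 3 without Cntl replicates 1, 3 and 4, and 3, 6 and 2 without cocktail-treated replicates 1, 2 and 3. The endothelial, mitochondrial and intronic values given above separated control-diet from obese libraries, and their part in these counts was not tested further.

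The outer-membrane partners and released proteins held the most falls in obese against control-diet hearts, 7 of 9 with 0 rises, against 15.7% of all genes called lower. Without a scaling factor, Vdac1 and Vdac2 kept the call and the other 5 (Vdac3, Mtch2, Cycs, Diablo and Aifm1) lost it. Vdac1 and Vdac2 encode channels of that membrane, and VDAC2 is known to bring Bak1 and Bax to it. Vdac1 had 347.9, 408.8 and 325.6 CPM in cocktail-treated libraries, 293.7, 215.5, 284.3 and 356.3 CPM in obese libraries, and 628.9, 432.8, 579.5 and 664.1 CPM in control-diet libraries. Every control-diet library stood above all others. Vdac1 fell 2.01-fold in obese hearts (edgeR adjusted p = 0.00136) and Vdac2 fell 1.74-fold (adjusted p = 0.00189), both relative to the control diet. Mtch2, a receptor for truncated Bid on mitochondria, fell 1.49-fold (adjusted p = 0.00435). Cycs, the gene of somatic cytochrome c, also fell (1.58-fold, adjusted p = 0.0194), but not without Cntl replicate 1 or 4 (0.0539 and 0.0623). In cocktail-treated against control-diet hearts, 4 of the 9 fell, where 8.39% of all genes were called lower. Among the 4 were Vdac1 (1.6-fold, adjusted p = 0.0296) and Mtch2 (1.38-fold, adjusted p = 0.0335). Both lost the call without Cntl replicates 1, 3 or 4, or without cocktail-treated replicates 1 or 3, at up to 0.127 for Vdac1 and 0.15 for Mtch2 (without ObeSeno replicate 3), and Mtch2 also without ObeSeno replicate 2 (0.058).

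Of 8 tested BCL-2-like and BNIP genes, 3 fell and 0 rose in each comparison with the control diet, where 15.7% (obese) and 8.39% (cocktail-treated) of all genes were called lower. Without a scaling factor, Bnip3 alone of the 3 kept its call in obese hearts. Bnip3, which encodes a mitochondrial protein with a BH3-like segment that serves as a mitophagy receptor, had 88.3, 73 and 67.4 CPM in cocktail-treated libraries, 65.9, 40.6, 58.9 and 72.9 CPM in obese libraries, and 410.6, 392.7, 392.2 and 549.6 CPM in control-diet libraries. The control-diet group stood far apart, and the other 2 groups overlapped. The log2 fold change was -2.87 in obese (SE 0.19, edgeR adjusted p = 5.47e-06) and -2.52 in cocktail-treated hearts (SE 0.21, adjusted p = 7.56e-05). Its relative Bnip3l (NIX) fell 1.42-fold in obese hearts (adjusted p = 0.00742), and Bcl2l13, another mitophagy receptor, fell 1.62-fold (adjusted p = 0.00552). Of the 5 other BH3-only genes, 1 fell and 0 rose in each comparison with the control diet, and it was Hrk, known mainly from neurons, whose call in obese hearts was lost without a scaling factor. It had 0.296, 0.329 and 0.402 CPM in cocktail-treated, 0.308, 0.377, 0.767 and 0.466 CPM in obese, and 1.27, 1.06, 1.45 and 0.952 CPM in control-diet libraries, with log2 fold changes of -1.78 (adjusted p = 0.00575) and -1.30 (adjusted p = 0.00655) in cocktail-treated and obese hearts. Bad, Bik, Bmf and Pmaip1 were not called in any comparison.

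**Figure D5:**
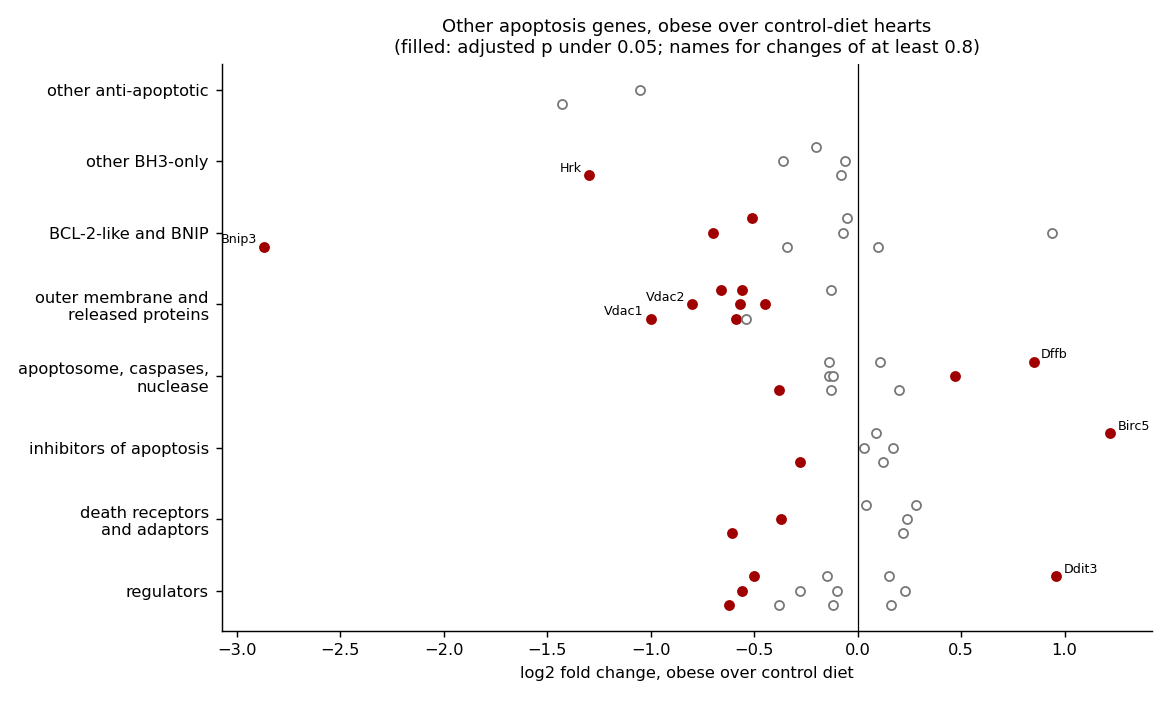
Log2 fold changes of 57 other apoptosis genes in obese over control-diet hearts, 1 point per gene in rows by role, filled where the adjusted p was under 0.05. Filled points lie mostly left of 0 (18 lower, 4 higher), with Bnip3 farthest at -2.87 and Birc5 the highest at 1.22. Without a scaling factor 3 were lower and 22 higher, where 960 of all genes were lower and 9061 higher.

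Downstream of the membrane the calls ran both ways. Apaf1, the scaffold of the apoptosome, had 16.8, 20.2, 16.9 and 16.4 CPM in obese libraries and 13.1, 14.8, 12.1 and 10.6 CPM in control-diet libraries, and rose without overlap (log2 fold change 0.47, SE 0.12, edgeR adjusted p = 0.00907). Casp9, the caspase that Apaf1 recruits, fell to 8.54 ± 0.9 CPM in obese hearts, against 11.1 ± 0.649 CPM in control-diet hearts (SD, n = 4 each; adjusted p = 0.0238), a call lost without Cntl replicate 1 (0.0502) or Obese replicate 1 (0.0729). Dffb, the nuclease that cuts DNA between nucleosomes, rose 1.8-fold (adjusted p = 0.0158), a call lost without Cntl replicate 1 (0.0522) or 4 (0.0528). Casp6, Casp2, Casp8 and Dffa were not called in any comparison.

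Of 6 inhibitors of apoptosis, Xiap, which blocks caspases, fell in cocktail-treated hearts (53.6 ± 2.22 CPM, n = 3) relative to control-diet hearts (74 ± 6.36 CPM, n = 4; 1.38-fold, edgeR adjusted p = 0.015; 0.0552 without ObeSeno replicate 3). Its fall in obese hearts was near the threshold (adjusted p = 0.0489) and passed with only 2 of the 11 libraries left out in turn. Birc5 (survivin) rose in obese hearts from a low level, at 0.607 ± 0.232 CPM, against 0.258 ± 0.115 CPM in control-diet hearts (SD, n = 4 each; adjusted p = 0.0344), a call lost without Cntl replicates 3 or 4 or Obese replicates 1 or 2 (0.0747 to 0.105). Of 6 death-receptor genes, 2 fell in obese hearts, Fadd (adjusted p = 0.027) and Tnfrsf1a (0.0459), where 15.7% of all genes were called lower. Fadd lost the call without Cntl replicates 1 or 4 or Obese replicates 1, 2 or 3 (0.063 to 0.0848), and Tnfrsf1a without Cntl replicates 1, 3 or 4, Obese replicates 1, 3 or 4, or ObeSeno replicate 3 (0.0583 to 0.119).

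The Bcl2a1 genes, survival genes of white blood cells, were barely detected. Bcl2a1b had 0.0591, 0.038 and 0.0731 CPM in cocktail-treated, 0.0514, 0.299, 0.0959 and 0.117 CPM in obese, and 0.453, 0.086, 0.325 and 0.671 CPM in control-diet libraries. It fell in cocktail-treated relative to control-diet hearts (log2 fold change -2.71, SE 0.73, edgeR adjusted p = 0.0273), a call lost without Cntl replicates 1 or 4 or any 1 cocktail-treated library (0.0617 to 0.0877). Summed neutrophil markers were 2.47 to 3.22 CPM in cocktail-treated, 3.74 to 5.01 CPM in obese and 4.1 to 7.38 CPM in control-diet libraries, with S100a8 and Ly6g at 0 in some libraries. Lymphocyte markers summed to 0.877 to 1.29, 0.874 to 2.47 and 2.22 to 3.67 CPM. Their part in the Bcl2a1b value was not tested. The Bcl2a1 copies are near-identical in sequence, so the split of reads between them is uncertain.

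Among regulators of the family's transcription or turnover, Foxo3, a transcription factor known to act on Bcl2l11 and Bbc3, differed most between cocktail-treated and obese hearts. It had 241.8, 243.8 and 221.5 CPM in cocktail-treated libraries, 184.7, 91.5, 174.8 and 167.0 CPM in obese libraries, and 214.0, 226.9, 206.9 and 157.8 CPM in control-diet libraries. The cocktail-treated libraries did not overlap the obese ones, which held for 10.1% of all genes, and Obese replicate 2 was the lowest of the 11. Obese and control-diet libraries overlapped, with no call. The log2 fold change of cocktail-treated over obese was 0.61 (SE 0.20, unadjusted p = 0.0103), which did not pass (edgeR adjusted p = 0.393). Ddit3, the stress factor CHOP that is known to raise Bcl2l11 and lower Bcl2, had 11.1, 12.4 and 9.7 CPM in cocktail-treated, 16.5, 9.9, 11.2 and 13.2 CPM in obese, and 5.86, 7.96, 4.86 and 7.49 CPM in control-diet libraries. Ddit3 had 2 identifiers, and its values are those of the identifier with the higher total (7606 counts). It rose without overlap in obese (log2 fold change 0.96, SE 0.19, adjusted p = 0.00273) and in cocktail-treated hearts (0.76, SE 0.20, adjusted p = 0.024) relative to the control diet. The second call was lost without Cntl replicates 1 or 3 or any 1 cocktail-treated library (0.0515 to 0.0754). Usp9x, the deubiquitinase that stabilises the Mcl1 protein, fell in obese hearts to 253.5 ± 19.4 CPM, against 389.8 ± 58.7 CPM in control-diet hearts (SD, n = 4 each; adjusted p = 0.00432). The co-chaperones Bag1 and Bag3, partners of Bcl2, fell 1.42-fold and 1.47-fold in obese hearts (edgeR adjusted p = 0.00803 and 0.0139). The calls of Usp9x, Bag1 and Bag3 in obese hearts were lost without a scaling factor. Trp53, Mdm2, Foxo1, Huwe1, Jun and Stat3 were not called in any comparison.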

How the data were processed

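The deposited table held whole-number counts per Ensembl mouse gene for 11 heart libraries, 52.7 to 103.3 M per library. The authors' processing used cutadapt, HISAT2 and StringTie with GRCm38, per the submitters' processing notes, and versions, annotation, counting settings and strand use were not stated there or in the labels. Symbols, positions and joined exon lengths came from GENCODE M21 (GRCm38), which named 55227 of 55487 identifiers, and promoter windows came from RefSeq (GRCm38.p6). The members and gene lists were chosen with earlier results of these data known.

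Genes were filtered with filterByExpr (minimum count 10, minimum total 15), scaled by TMM and fitted over 11 libraries and 3 groups with edgeR 4.0.16 in R 4.3.3 (robust quasi-likelihood). The common biological coefficient of variation was 0.259, and the procedure was tested on simulated data. A standard error is the absolute log2 fold change over the square root of F. All 10 members were named. Of the other genes, the 2 of smallest adjusted p per list and comparison, and any called gene with a fold of 2 or more, were taken by rule, and further genes were named after their values were seen. Some genes taken by the rule are not reported here. Marker sums and per-kb levels used TMM-scaled CPM. Log2 ratios used a prior count of 1. Genes of most like pattern were sought among those with a mean of at least 5 CPM.

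Alternatives were RLE, upper-quartile or no scaling, other gene sets and filters, DESeq2 1.42.0, limma voom 3.58.1, fits of 2 groups, a replicate block, covariates and leaving out libraries. No scaling and the mitochondrial and endothelial covariates were chosen after seeing the data. The intronic share used as a covariate was the percent of counts in genes that GENCODE types as sense_intronic or TEC. Reads in introns were not counted. Libraries of 1 group differed by a chi-square of 30.7 to 124.1 per gene, above counting noise, so no file was the same library deposited again, which does not show that libraries came from separate animals. Counting depth was at least 54 counts for each member in each library.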

Additional observations from a re-analysis of the deposited data

Results flagged for a closer look

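In 78 groups of 4 libraries (the 10 family genes and named partners, in obese and control-diet hearts), 6 had a single library far from the other 3 by Dixon's ratio. Chance gives about 1 in 20 such groups, and none of the 6 was a group of the 10 family genes. Obese replicate 2 gave 4 of them. Apaf1 was at 20.2 CPM there, with the other obese libraries at 16.4 to 16.9 CPM. Bcl2a1d was at 0.362 CPM there, against 0 to 0.0437 CPM. Casp8 was at 7.73 CPM there, against 5.17 to 5.53 CPM. Bnip1 was at 6.98 CPM there, against 8.09 to 8.26 CPM. Fadd was at 8.22 CPM in Obese replicate 4, with the rest of that group at 5.54 to 5.98 CPM. Bnip3 was at 549.6 CPM in Cntl replicate 4, with the rest of that group at 392.2 to 410.6 CPM.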

How the results depend on the processing

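No value reversed a call. Of the 10 family genes' log2 fold changes under the alternatives, 751 kept their side of the threshold, 13 gained a call and 16 lost one. The sign changed without a call in either fit in 43 of 450 values under other settings and in 23 of 330 with 1 library left out. The reported values that changed sign were at most 0.39 in size, and the values they changed to reached 1.48, for Bok in ObeSeno against Cntl. The Bax to Bcl2 ratio moved by less than its spread in all alternatives run. Calls of edgeR are given next as higher and lower, in place of 0 and 0 genes for all genes in ObeSeno against Obese, 3429 and 3737 in Obese against Cntl, and 1766 and 1994 in ObeSeno against Cntl.

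With RLE size factors, 2 family genes were lower in Obese against Cntl. With upper-quartile scaling, 1 and 1 of all genes were called in ObeSeno against Obese, and 0 family genes were lower in ObeSeno against Cntl. Without a scaling factor, the medians of all genes shifted by 0.420 and 0.416 in the comparisons of Obese and ObeSeno with Cntl. In Obese against Cntl the calls were then 2 and 0 family genes, 9061 and 960 of all genes, and 22 and 3 other apoptosis genes. In ObeSeno against Cntl they were 2 and 0 family genes (Bcl2l2 and Bax), 6911 and 389 of all genes, and 19 and 3 other apoptosis genes. With protein-coding genes only, 1 and 1 of all genes were called in ObeSeno against Obese and 2 other apoptosis genes were higher in ObeSeno against Cntl. With no low-count filter, 1 and 1 of all genes were called in ObeSeno against Obese. DESeq2 called 52 and 80 of all genes there, with 2 family genes lower in Obese against Cntl and 3 lower in ObeSeno against Cntl. With limma voom, 2 family genes were lower in Obese against Cntl.

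With the intronic share as a covariate, Obese against Cntl gave 0 family genes lower, 35 and 86 of all genes, and 0 and 1 other apoptosis genes, and ObeSeno against Cntl gave 0 family genes lower, 209 and 301 of all genes, and 0 and 2 other apoptosis genes. With the mitochondrial share, Obese against Cntl gave 0 family genes lower, 1 and 5 of all genes, and 0 and 1 other apoptosis genes, and ObeSeno against Cntl gave 0 family genes lower, 0 and 0 of all genes, and 0 and 0 other apoptosis genes. With the endothelial marker level, 1 gene was lower in ObeSeno against Obese. Obese against Cntl then gave 0 family genes lower, 138 and 198 of all genes, and 0 and 2 other apoptosis genes, and ObeSeno against Cntl gave 0 family genes lower, 15 and 29 of all genes, and 0 and 1 other apoptosis genes. Without the 3 libraries of highest atrial marker level, 2 and 3 of all genes were called in ObeSeno against Obese, and ObeSeno against Cntl, with 1 ObeSeno library assumed to vary like the others, gave 0 family genes lower, 239 and 139 of all genes, and 0 and 1 other apoptosis genes. The cause of these changes was not tested.

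Leaving out 1 library at a time gave 0 to 15 higher and 0 to 9 lower of all genes in ObeSeno against Obese. It gave 2117 to 3752 higher and 2800 to 4401 lower in Obese against Cntl, and 459 to 2015 higher and 552 to 2722 lower in ObeSeno against Cntl. Family genes lower numbered 1 to 3 in Obese against Cntl (3 without Cntl replicate 2 and 2 without Obese replicate 4) and 0 to 1 in ObeSeno against Cntl. Other apoptosis genes numbered 2 to 5 higher and 13 to 20 lower in Obese against Cntl, and 0 to 3 higher and 2 to 14 lower in ObeSeno against Cntl.

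The groups share replicate numbers, but libraries of the same number did not deviate together in every pair, with correlations of -0.23 to 0.40, so the numbers were not taken as pairs. With the replicate block, 2 family genes were lower in Obese against Cntl and 4 other apoptosis genes were lower in ObeSeno against Cntl, and Bcl2l11 had log2 fold changes of -0.75 and -0.49 in these comparisons (edgeR adjusted p = 0.00137 and 0.0363). Bid, Bbc3 and Bok had the fewest counts of the 10 genes, and standard errors ran up to 0.31, for Bok; Bcl2l1, with more counts, had 0.21 to 0.23.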
